A study of Mus musculus with 6 samples.

Results

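Choroid plexus spots are the places on 6 coronal mouse brain sections where transcripts of the choroid plexus epithelium were most abundant. In each section, spots with at least 500 unique molecular identifiers (UMIs, 1 per captured transcript) were scored by adding log1p(UMIs × 10000 / spot total) over the epithelial genes Kl, Folr1, Clic6 and Kcne2. The 30 spots with the highest score were taken from each section, which gave 180 of the 16741 spots kept, and the other 16561 spots served for comparison. The sections came from male mice of the inbred strain C57BL/6J, aged 6 months (young), 18 months (middle) or 21 months (old), and no treatment or transgene is named in the labels. Each age had 2 sections from 2 males, so each section was taken as 1 animal and as the replicate. Spatial transcriptomes were read with Visium, which captures polyadenylated RNA of frozen tissue on an array of barcoded spots. A spot covers several cells and can mix cell types, so these are spots rich in choroid plexus transcripts and not isolated epithelium. Slide 1 held young 1, young 2, middle 1 and old 1, and slide 2 held middle 2 and old 2, so no young section lay on slide 2.

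The choroid plexus hangs in the brain ventricles as a sheet of epithelial cells around a core of stroma with leaky capillaries, fibroblasts and macrophages. The epithelium secretes cerebrospinal fluid by moving ions and water from blood to ventricle, carries folate, thyroid hormone and other solutes, and releases proteins such as transthyretin. Its tight junctions form the barrier between blood and cerebrospinal fluid, and the tissue is also known as a route by which immune signals reach the brain.

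The 30 choroid plexus spots of a section summed to between 944460 UMIs (middle 2) and 1390500 UMIs (young 1), with a median per spot from 30143.5 to 43482 UMIs against 20290 to 29966 UMIs in the other spots. The spot array repeats its barcodes on every capture area, so that 1919 of 3389 barcodes occurred in all 6 sections, and 55 choroid plexus spots had a barcode that was also chosen in another section. A shared barcode there is a shared array position and not a shared cell. In what follows, CPM (counts per 1000000) means UMIs relative to a section's choroid plexus sum, scaled with TMM factors between sections. Unscaled CPM leaves out those factors and is used where choroid plexus spots are set beside the other spots. Age changes are log2 fold changes of these sums with their standard errors (SE), tested with edgeR over all genes, and a gene was called at an adjusted p under 0.05. The precision of each value is limited by its UMI count and by 2 sections per age.

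The 30 spots of a section reached down to different scores over the 4 genes in the 6 sections. The highest score of a section was between 8.60 and 9.26. The lowest score accepted and the highest score left out were 2.62 and 2.42 in young 1, 1.68 and 1.58 in young 2, and 1.39 and 1.38 in middle 1. The same pair was 5.27 and 5.20 in middle 2, 3.85 and 3.82 in old 1, and 3.24 and 3.14 in old 2. All 4 genes were detected in 27, 27, 22, 30, 30 and 27 of the 30 spots of young 1, young 2, middle 1, middle 2, old 1 and old 2. The section held 31, 27, 22, 55, 47 and 33 such spots in all, in the same order. The fixed number of 30 therefore reached into spots with little choroid plexus in middle 1 and, to a lesser degree, young 2 and young 1, and stopped short of further choroid plexus spots in middle 2 and old 1.

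Ttr, which encodes transthyretin, the carrier of thyroid hormone and retinol-binding protein in cerebrospinal fluid, was not part of the score and served to check it. Ttr took 16.8% of the choroid plexus UMIs in young 1, 17.5% in young 2, 13.5% in middle 1, 23.2% in middle 2, 23.3% in old 1 and 21.9% in old 2. In the other spots its share ran from 0.0187% to 0.0993%. The share per spot had medians of 14.4%, 14.2%, 5.19%, 22.4%, 20.8% and 18.2% in the same order of sections. Its lowest value was 0.206%, in a spot of middle 1, and its highest was 37.1%, in a spot of middle 2. In middle 1, 15 of the 30 spots had under 5% Ttr, against 8, 5, 0, 1 and 1 in young 1, young 2, middle 2, old 1 and old 2. The young sections averaged 17.2% ± 0.488 (SD, n = 2), the middle sections 18.3% ± 6.84 (SD, n = 2) and the old sections 22.6% ± 0.989 (SD, n = 2). Both old values lay above both young values. A two-sided exact permutation test of the 3 ages over 15 assignments gave p = 0.533, but its smallest possible p is 0.0667, so this design could not pass 0.05.

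**Figure D1:**
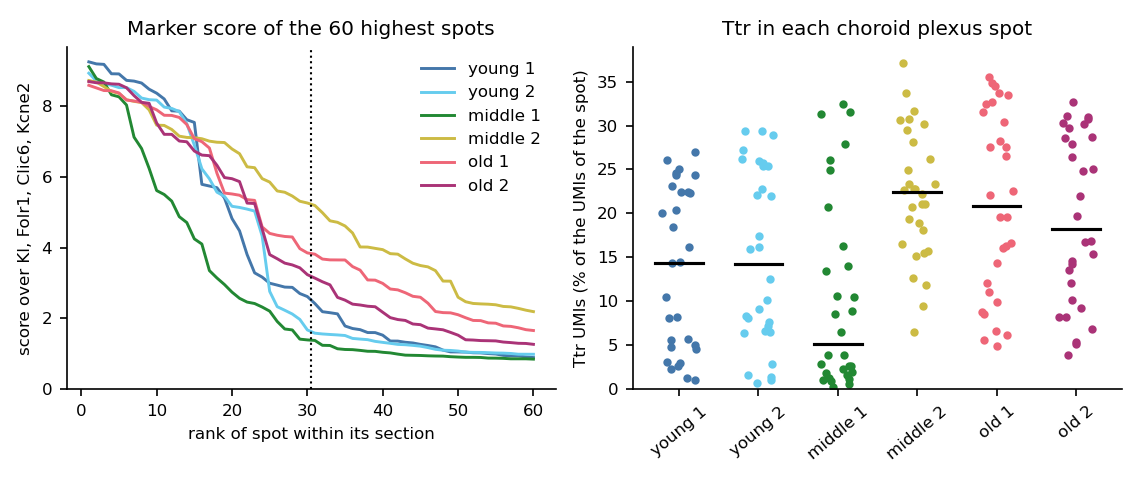
Left, score over Kl, Folr1, Clic6 and Kcne2 (no unit) of the 60 highest spots of each section against their rank, with a dotted line after rank 30. Right, percent of UMIs from Ttr in each of the 30 choroid plexus spots per section (points) with the median (bar); the median is 5.19% in middle 1 and 14.2% to 22.4% in the other 5 sections.

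Genes that define the choroid plexus epithelium were far above their level in the other spots of the same section. This is a description, since the score chose the spots by this contrast and other genes of the same cells follow it. Among genes with at least 50 unscaled CPM in each section, the 20 with the highest lowest ratio over sections ran from Slc4a5, a sodium bicarbonate cotransporter, at 247 or more times its level in the other spots, to Wdr86 at 120 or more times. Of the genes of the score, Kcne2 (a potassium channel subunit) was at 244, Folr1 (the folate receptor) at 149 and Kl (klotho, the co-receptor of FGF23) at 148 times or more, and all 3 were among those 20. Ttr came to 233, the coagulation factor gene F5 to 216, the water channel gene Aqp1 to 163, the potassium channel gene Kcnj13 to 155 and the tight junction gene Cldn2 to 139 times or more. Ecrg4, which encodes a secreted peptide precursor, reached 145, and the little described transcripts Tmem72, Frmpd1os and 2900040C04Rik reached 222, 194 and 180 times or more. The monocarboxylate transporter gene Slc16a8 (172) and the metalloreductase gene Steap1 (173) were in the same group. Enpp2, which encodes the secreted enzyme autotaxin, was the most abundant of the other secreted genes, with 13602, 12771, 7950, 12937, 16015 and 13435 CPM in young 1, young 2, middle 1, middle 2, old 1 and old 2. It was at least 41.9 times its level in the other spots, and Otx2, the transcription factor gene that maintains the tissue, at least 68.1 times.

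**Figure D2:**
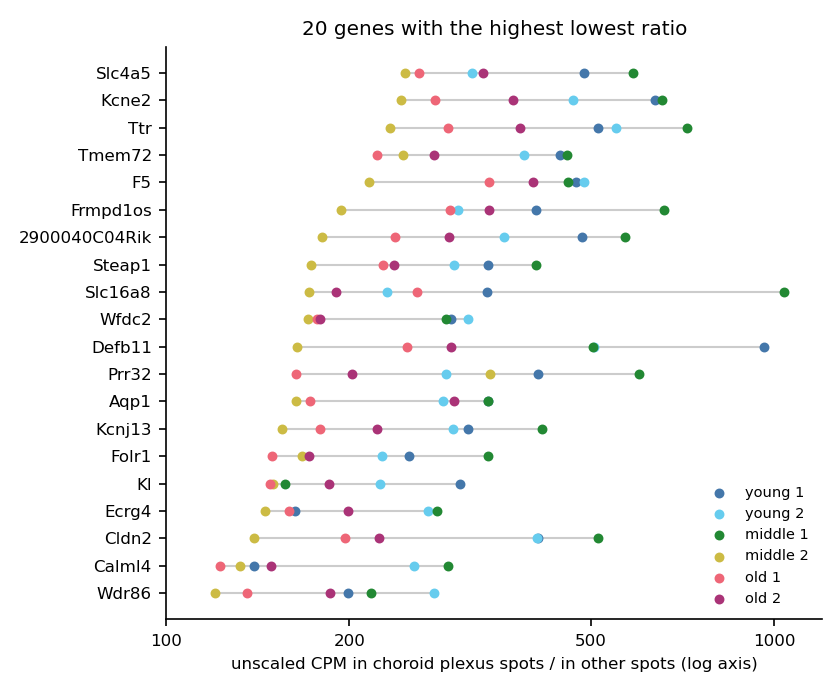
Ratio of unscaled CPM in choroid plexus spots to unscaled CPM in the other spots of the same section (log axis) for the 20 genes with the highest lowest ratio, 1 point per section and a line from lowest to highest. The lowest ratio falls from 247 for Slc4a5 to 120 for Wdr86.

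Genes used for other cell types were present in the chosen spots to different degrees. The 18 genes listed for ependyma, the ciliated lining of the ventricles, summed to 17.2 to 36.3 times their unscaled CPM in the other spots. This list includes Foxj1, which is also in the epithelial transcription factor list. Within sections the ependymal share fell only weakly as the Ttr share rose (Spearman correlations from -0.38 to -0.19, given as a description). Whether these transcripts came from ventricle wall or from the epithelium was not tested. The 7 genes of MHC class II, which present antigen, were at 4.89 to 20.6 times their level in the other spots, and the 14 stromal fibroblast genes without Ptgds at 6.32 to 10.9 times. The summed endothelial and mural lists were near their level elsewhere (0.874 to 1.26 and 1.14 to 1.42 times), and 14 neuronal genes were low (0.0974 to 0.171 times). Such a sum does not hold for each gene of its list. The endothelial gene Emcn was at 27.7 to 55.7 CPM in choroid plexus spots and 6.60 to 7.56 CPM in the other spots, each scaled within its own fit. Oligodendrocyte genes summed to 7558, 8823, 15589, 5857, 3265 and 6702 unscaled CPM in young 1, young 2, middle 1, middle 2, old 1 and old 2. They were therefore highest in middle 1, the section with the least Ttr, and 2.26 times the other spots there. Within every section, spots with more Ttr had a smaller share of oligodendrocyte UMIs (Spearman correlations over 30 spots of one library from -0.91 to -0.55, given as a description). Neuronal, astrocyte and oligodendrocyte genes together took 0.970%, 1.17%, 1.89%, 0.825%, 0.593% and 0.945% of the UMIs in the same order, and the exact permutation test over the ages, which cannot go below 0.0667, gave p = 0.667. Erythrocyte genes stood highest in old 2, at 128 unscaled CPM against 11 to 32 in the other sections, and neutrophil genes were at 3 unscaled CPM or less.

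**Figure D3:**
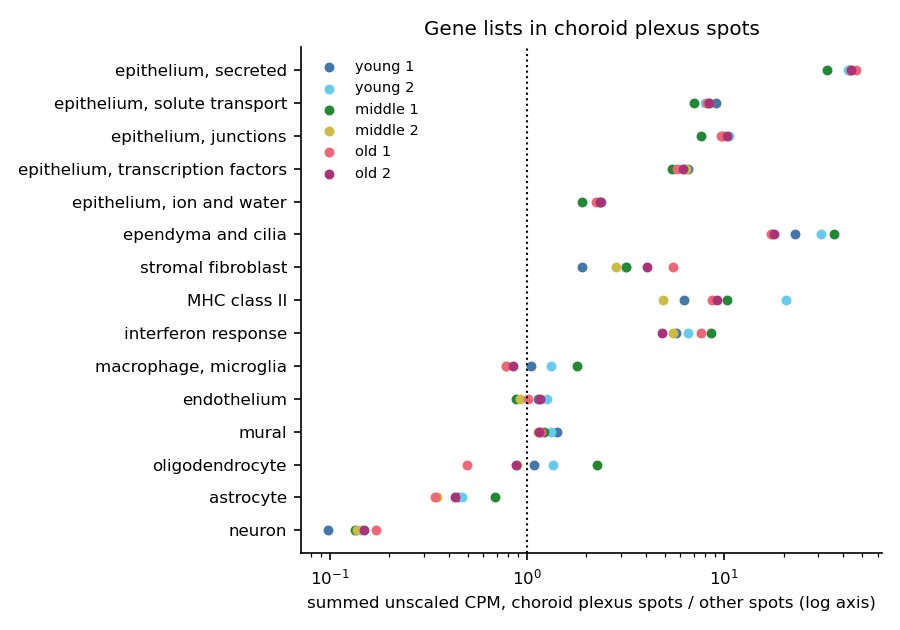
Summed unscaled CPM of 15 gene lists in choroid plexus spots divided by that in the other spots of the same section (log axis), 1 point per section, with a dotted line at 1. Epithelial lists lie to the right, neuronal genes lie at 0.0974 to 0.171, and the oligodendrocyte list reaches 2.26 in middle 1.

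The first question was which transcripts of these spots differed between the ages. In old against young sections, 10 of the 10245 genes tested were called (0.0976%), with 4 higher (0.039%) and 6 lower (0.0586%). In middle against young sections 4 genes were called (0.039%), all lower, and in old against middle sections none was called by edgeR (0%). For old against middle, 587 genes (5.73%) had an unadjusted p under 0.05, and DESeq2 called 1 gene. Fewer cells of a type in a spot and less RNA per cell cannot be told apart in such sums. The number of calls for old against young moved with the sections used, from 2 without young 1, 4 without old 1 and 5 without old 2 to 12 without middle 2, 14 without middle 1 and 16 without young 2.

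The inducible chaperone genes Hspa1a and Hspa1b had the largest fold changes of all called genes. They encode nearly identical copies of the heat shock protein HSP70, lie next to each other on chromosome 17 (34969190 to 34972156 and 34956436 to 34959238 of GRCm38, minus strand) and are strongly induced by heat and other stress. Because their transcripts are so alike, the split of reads between them is uncertain. The bases directly before each gene are shown, since the heat shock factor binds inverted GAA units upstream of its targets, and the letters GAANNTTC are in capitals. Hspb1, a small heat shock protein gene, is shown for comparison, and all windows are 250 bases upstream of the RefSeq start in build GRCm38.p6, 5′ to 3′ on the strand of the gene.
Hspa1a, chr17:34972157-34972406, minus strand: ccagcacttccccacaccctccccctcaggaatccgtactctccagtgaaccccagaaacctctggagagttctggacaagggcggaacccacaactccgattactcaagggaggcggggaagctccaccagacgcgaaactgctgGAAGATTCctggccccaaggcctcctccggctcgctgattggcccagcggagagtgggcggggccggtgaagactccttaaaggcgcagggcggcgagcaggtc
Hspa1b, chr17:34959239-34959488, minus strand: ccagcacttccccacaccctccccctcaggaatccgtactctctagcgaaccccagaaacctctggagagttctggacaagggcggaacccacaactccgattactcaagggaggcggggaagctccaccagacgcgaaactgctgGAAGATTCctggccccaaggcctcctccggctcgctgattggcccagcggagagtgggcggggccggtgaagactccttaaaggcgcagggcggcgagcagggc
Hspb1, chr5:135887669-135887918, plus strand: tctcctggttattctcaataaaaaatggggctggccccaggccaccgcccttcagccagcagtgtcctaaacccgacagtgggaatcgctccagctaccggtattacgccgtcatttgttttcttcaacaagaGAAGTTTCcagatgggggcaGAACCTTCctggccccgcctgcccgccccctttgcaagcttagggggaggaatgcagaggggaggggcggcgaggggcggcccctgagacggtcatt
The windows of Hspa1a and Hspa1b were identical at 247 of 250 positions. Each held GAANNTTC once, starting 104 bases before the gene, and Hspb1 held it at 2 places. The letters read the same on both strands and occurred in 6.69% of 32851 such windows of the mouse genome, so a match is a description and not a proven site. The longer form, with another GAA unit after 2 further bases, was in none of these 3 windows and in 0.466% of all windows. Neither window of Dnajb1, a cochaperone gene named below, contained these letters.

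Summed over both genes, Hspa1a and Hspa1b had 367 and 290 UMIs in the choroid plexus spots of young 1 and young 2, 40 and 26 in middle 1 and middle 2, and 29 and 23 in old 1 and old 2. These counts correspond to 272, 268, 37.4, 28.2, 30.4 and 24.5 CPM. Both young sections were far above all 4 older sections, which overlapped among themselves. At least 1 such UMI was found in 29 and 30 of the 30 young spots, in 20 and 18 of the middle spots, and in 19 and 12 of the old spots. Hspa1b alone averaged 153 ± 8.16 CPM (SD, n = 2) in the young sections, 22.6 ± 8.51 CPM (SD, n = 2) in the middle sections and 11.8 ± 0.157 CPM (SD, n = 2) in the old sections. It fell by 3.68 on the log2 scale in old against young (SE 0.28, edgeR adjusted p = 9.16e-06) and by 2.74 in middle against young (SE 0.25, edgeR adjusted p = 5.31e-05). Hspa1a averaged 122 ± 6.43 CPM (SD, n = 2) in the young sections, 10.8 ± 1.85 CPM (SD, n = 2) in the middle sections and 16.1 ± 4.35 CPM (SD, n = 2) in the old sections. It fell by 2.91 in old against young (SE 0.26, edgeR adjusted p = 4.55e-05) and by 3.49 in middle against young (SE 0.28, edgeR adjusted p = 1.71e-05).

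The fall was present in the spots rich in Ttr and in those poor in it. Among the 15 spots of each section with the highest Ttr share, the sum of both genes was 311 and 331 unscaled CPM in the young sections and 13.1 to 25.2 in the 4 older ones. Among the 15 spots with the lowest Ttr share it was 177 and 228 in young and 36.8 to 60.9 in the older sections. The other spots of the sections showed a lower level with age too, from 105 and 105 unscaled CPM in young to between 28.8 and 35.4 in the older sections. The fall of Hspa1b in old against young was larger in choroid plexus spots than in the other spots by 1.87 on the log2 scale (interaction with section as block, edgeR adjusted p = 3.38e-04). The difference for Hspa1a in old against young was -1.20 and did not pass (edgeR adjusted p = 0.127). Nor did that of Hspa1b in middle against young (-1.06, edgeR adjusted p = 0.305). The sum of both genes was not tested in this way. For middle against young the difference passed for Hspa1a (-1.81, edgeR adjusted p = 0.00568), and without middle 1 it was -1.65 with an adjusted p of 0.0626. Without old 1 the difference for Hspa1b was -1.68 with an adjusted p of 0.154.

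Other chaperone genes pointed the same way with smaller changes. All 16 genes of a heat shock list, Hspa1a and Hspa1b included, had a log2 fold change under 0 in old against young (median -0.56, against 0.0011 over all genes tested, 50.1% of which were above 0). Of the 16, 3 were called lower, Hspa1a, Hspa1b and Dnajb1, beside 0.0586% of all genes. In middle against young, 15 of 16 were under 0 (median -0.50, against 0.018 over all genes, 52.6% of which were above 0), and 4 were called lower, Hspb1 as well, beside 0.039% of all genes. Without Hspa1a and Hspa1b, all 14 genes were under 0 in old against young (median -0.43, 1 called lower). In middle against young 13 of these 14 were under 0 (median -0.37, 2 called lower). Dnajb1, which encodes the HSP40 partner that loads clients onto HSP70 (chromosome 8, 83608193 to 83612653), measured 295, 246, 61.0, 89.5, 105 and 73.9 CPM in young 1, young 2, middle 1, middle 2, old 1 and old 2. All 4 older sections lay below both young ones, and the gene fell by 1.60 in old (SE 0.23, edgeR adjusted p = 0.0135) and by 1.85 in middle (SE 0.23, edgeR adjusted p = 0.00269) against young. Without young 1 the first of these was -1.46 (adjusted p = 0.191), without old 2 -1.36 (adjusted p = 0.297). Hspb1 (chromosome 5, 135887919 to 135889563) measured 136, 187, 50.5, 54.1, 98.1 and 80.4 CPM in the same order and fell by 1.62 in middle against young (SE 0.22, edgeR adjusted p = 0.00627). Without young 2 this was -1.38 with an adjusted p of 0.115, and in old against young the value was -0.85 (edgeR adjusted p = 0.448). With slide or with the replicate number as a block, Dnajb1 and Hspb1 were not called in middle against young (Dnajb1 -1.86 and -1.84, edgeR adjusted p = 0.152 and 0.133, and Hspb1 -1.57 and -1.61, 0.211 and 0.133). Dnajb1 in old against young was not called either (-1.61 and -1.60, edgeR adjusted p = 0.164 and 0.169), nor with 60 spots per section (-1.58, 0.0684). The constitutive chaperone genes did not pass: Hspa8 was at -0.31, Hsp90ab1 at -0.34 and Hsp90aa1 at -0.46 in old against young (edgeR adjusted p = 0.975, 0.975 and 0.953). Of 21 genes for folding in the endoplasmic reticulum, 9 were above 0 and none was called, with a median of -0.03.

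**Figure D4:**
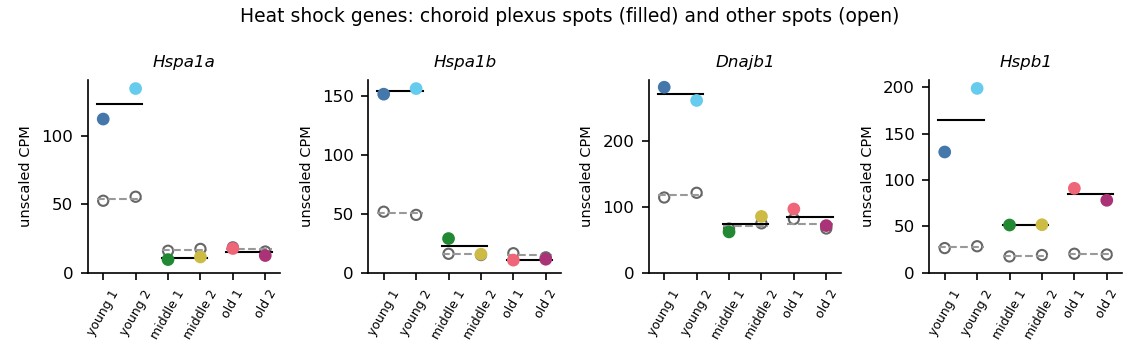
Unscaled CPM of Hspa1a, Hspa1b, Dnajb1 and Hspb1 in the choroid plexus spots (filled points) and the other spots (open points) of each section, with means per age as solid and dashed lines. Young 1 and young 2 lie above all older sections in the choroid plexus spots of each gene.

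A further group of lower genes in old choroid plexus spots included 2 that respond to acute signals. Cebpb, a transcription factor gene induced by cytokines and glucocorticoids (chromosome 2, 167688915 to 167690418), had 54.9 and 60.4 CPM in young 1 and young 2, 21.9 and 19.9 in middle 1 and middle 2, and 18.1 and 15.2 in old 1 and old 2. The young sections did not overlap the others, and the gene fell by 1.78 in old against young (SE 0.28, edgeR adjusted p = 0.0224). Errfi1, which encodes a feedback inhibitor of the EGF receptor (chromosome 4, 150853919 to 150868892), had 45.2, 52.9, 18.1, 12.2, 9.60 and 16.3 CPM in the same order. It fell by 1.91 in old against young (SE 0.33, edgeR adjusted p = 0.0419). In middle against young the values were -1.45 for Cebpb and -1.67 for Errfi1, and neither passed (edgeR adjusted p = 0.100 and 0.118). Each of these calls in old against young was lost without young 1, young 2, old 1 or old 2 (adjusted p from 0.0662 to 0.306 for Cebpb, at -1.91 to -1.65, and from 0.110 to 0.691 for Errfi1, at -2.32 to -1.57). With 60 spots per section Cebpb was at -1.08 (edgeR adjusted p = 0.320). Genes of related lists showed no call. Of 13 immediate early and NF-kB genes, 4 were above 0 in old against young, with a median of -0.54, and Egr1 stood at -1.57 (edgeR adjusted p = 0.289). Of 16 clock and glucocorticoid response genes, 5 were above 0, with a median of -0.34, and Sgk1 stood at -0.66 (edgeR adjusted p = 0.794).

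Thbs4, which encodes the matrix protein thrombospondin 4 (chromosome 13, 92751590 to 92794818), was lowest in the old sections. It had 37.6 and 26.4 CPM in young 1 and young 2, 24.8 and 22.1 in middle 1 and middle 2, and 6.40 and 5.43 in old 1 and old 2, the last 2 values from 6 and 5 UMIs. It fell by 2.43 in old against young (SE 0.39, edgeR adjusted p = 0.0267), and middle against young did not pass (-0.46). Without young 1, old 1 or old 2 its value was -2.13, -2.55 and -2.31 with adjusted p of 0.561, 0.166 and 0.297, and with 60 spots per section it was -1.15 (edgeR adjusted p = 0.559). Acta2, the smooth muscle actin gene of arterioles, was also lowest in the old sections. It measured 51.9, 48.1, 50.5, 37.6, 12.8 and 20.6 CPM from young 1 to old 2. Its log2 fold change of -1.58 in old against young did not pass (SE 0.31, edgeR adjusted p = 0.104). In the other spots Acta2 was at 8.7 to 9.9 unscaled CPM in young and 10.0 to 18.0 in old sections. Its age change differed between choroid plexus spots and other spots by -2.10 (edgeR adjusted p = 1.01e-04), and that of Thbs4 by -2.53 (edgeR adjusted p = 0.00686). Of the 6 tested genes of the mural cell list, 3 were above and 3 below 0 in old against young (median -0.09). The summed list was at 216 to 233 unscaled CPM in young and 207 to 241 in old sections.

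Ptgds was the abundant gene among the 4 that were higher in old sections. It encodes the enzyme that makes prostaglandin D2, is secreted into cerebrospinal fluid, and is made by the leptomeninges and the choroid plexus (chromosome 2, 25466709 to 25470046). It measured 1906 and 1602 CPM in young 1 and young 2, 2143 and 2160 in middle 1 and middle 2, and 5620 and 3995 in old 1 and old 2. Both old sections lay above all others, and the gene rose by 1.45 in old against young (SE 0.26, edgeR adjusted p = 0.0419), while middle against young was 0.29 and did not pass. A few spots held much of this transcript in old sections. The 3 spots with the most Ptgds held 56.3% and 44.1% of its UMIs in old 1 and old 2, against 18.3% to 28.3% in the other sections. Without those 3 spots per section, the levels were 1669, 1641, 1717, 1862, 2556 and 2348 unscaled CPM in the order from young 1 to old 2. These values leave out the TMM factors, so they are not on the same scale as the CPM values above. The median share per spot was 0.174% and 0.176% in the young sections and 0.214% and 0.241% in the old ones. With 60 spots per section the fold change was 0.26 (edgeR adjusted p = 0.989), and with 15 it was 1.00 (edgeR adjusted p = 0.206). Leaving out young 1, young 2, old 1 or old 2 also ended the call, at 1.59, 1.33, 1.19 and 1.69 (adjusted p from 0.0925 to 1.00). In the other spots Ptgds was at 849 to 1339 unscaled CPM in young and 1018 to 1116 in old sections, and the age change differed from that of the choroid plexus spots by 1.5 (edgeR adjusted p = 2.72e-06). The SE of this difference was 0.18, below the 0.26 of the choroid plexus spots alone. Its fit shared 1 spread with the larger sums of the other spots, so this p-value can understate the spread of the choroid plexus sums. The stromal fibroblast genes without Ptgds summed to 1033 and 1416 unscaled CPM in young and 1178 and 1306 in old sections, and 8 of the 9 tested were above 0 in old against young with none called.

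The other 2 genes with a known product that were higher in old choroid plexus spots were Adcy1 and Camk2a. Adcy1, the gene of a calmodulin-stimulated adenylyl cyclase of neurons (chromosome 11, 7063489 to 7178506), measured 21.1, 37.8, 38.1, 59.6, 109 and 93.4 CPM from young 1 to old 2. It rose by 1.81 in old against young (SE 0.28, edgeR adjusted p = 0.0224). Camk2a, the gene of the alpha subunit of a synaptic protein kinase, measured 42.9, 45.3, 62.9, 65.2, 159 and 86.9 CPM and rose by 1.48 (SE 0.26, edgeR adjusted p = 0.0419). For both genes the old sections lay above all others. The counts sat mostly in the spots poorer in Ttr: Adcy1 had 195 and 179 unscaled CPM in the 15 old spots with the lowest Ttr share, and 39.3 and 42.5 in the 15 with the highest. In the young sections these were 32.6 and 51.7 against 13.3 and 32.8. A few spots held much of both transcripts in the old sections. In old 1, the spots ranked 24 and 26 by score held 25 and 26 of its 102 Adcy1 UMIs. The same spots held 50 and 48 of its 149 Camk2a UMIs. In old 2, the spot ranked 23 held 28 of 86 Adcy1 UMIs and 23 of 80 Camk2a UMIs. In the other spots both genes were far higher and had no such order, Adcy1 with 265 and 341 unscaled CPM in young and 296 and 255 in old sections. The age change differed from that of the other spots by 2.01 for Adcy1 (edgeR adjusted p = 2.71e-06) and by 1.43 for Camk2a (edgeR adjusted p = 1.51e-04). Of the 14 genes of the neuron list, 11 were above 0 in old against young (median 0.53), beside 50.1% of all genes. Camk2a alone of the 14 was called higher, beside 0.039% of all genes. The list summed to 946 and 1532 unscaled CPM in young and 1712 and 1501 in old sections, with old 2 just below young 2, and none of its genes was at 0. Its part in these changes was not tested. With 15 spots per section the values were 0.95 for Adcy1 and 0.71 for Camk2a (edgeR adjusted p = 0.724 and 0.922), and with 60 they were 1.16 and 0.95 (both 0.989). Without young 1 they were 1.43 and 1.45 (adjusted p = 0.561 and 0.767), without old 1 they were 1.69 and 0.98 (0.145 and 1.00), and without young 2 Camk2a was at 1.52 (0.164).

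The fourth higher gene, AC149090.1, is a protein-coding gene model on the unplaced scaffold JH584304.1 (52190 to 59690). It measured 72.2 and 96.3 CPM in young 1 and young 2, 154 and 218 in middle 1 and middle 2, and 194 and 211 in old 1 and old 2. It rose by 1.27 in old against young (SE 0.22, edgeR adjusted p = 0.0419), and middle against young was 1.14 (edgeR adjusted p = 0.156). The call was lost without young 1 (1.08, adjusted p = 0.769), young 2 (1.48, 0.0593), old 1 (1.33, 0.167) or old 2 (1.22, 0.309). In the other spots the young sections were the lowest as well, as the plot of the other named genes shows.

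**Figure D5:**
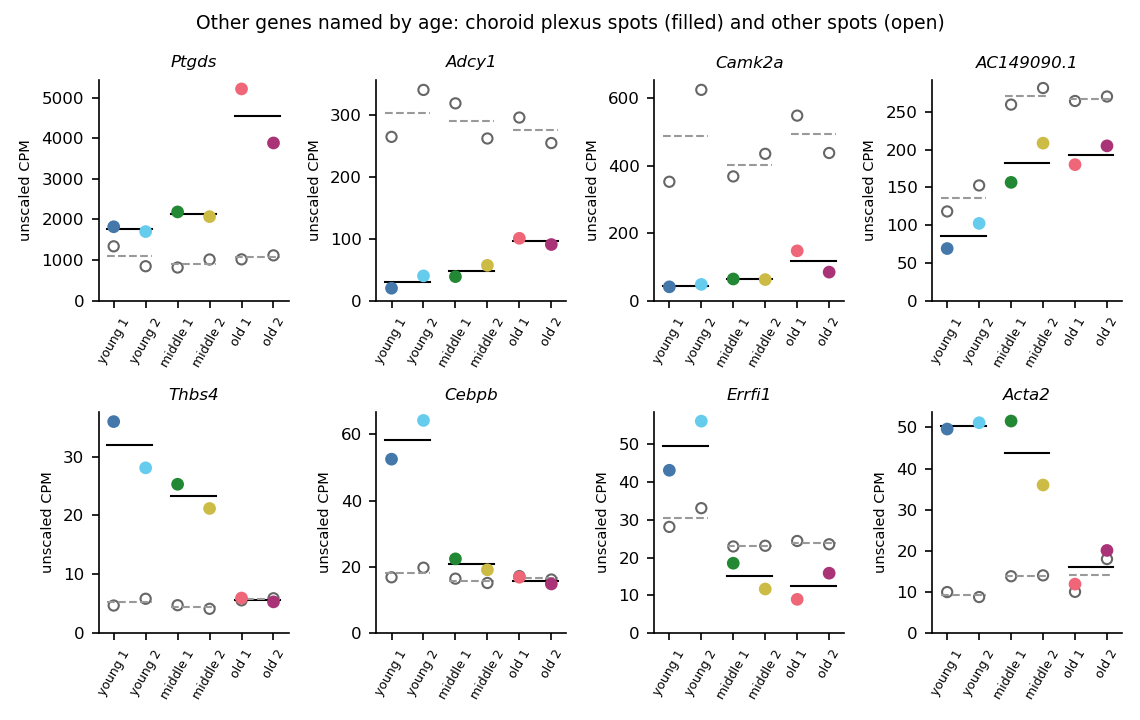
Unscaled CPM of Ptgds, Adcy1, Camk2a, AC149090.1, Thbs4, Cebpb, Errfi1 and Acta2 in choroid plexus spots (filled points) and other spots (open points) of each section, with means per age as solid and dashed lines. Ptgds is at 3995 CPM or more after scaling in old and at 2160 or less in the other sections, and Adcy1 and Camk2a stay below their level in the other spots at every age.

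The epithelial genes themselves showed no call with age. Leaving out the genes of the score, 17 of 22 secreted products were above 0 in old against young (median 0.13). The counts were 12 of 17 for ion and water transport (median 0.14), 14 of 17 for solute carriers (0.10), 7 of 11 for junctions (0.12) and 4 of 6 for transcription factors (0.12), with none called, beside 50.1% of all genes above 0. Ttr itself was at 0.49 (SE 0.43, edgeR adjusted p = 0.980), Enpp2 at 0.16 (SE 0.31), Otx2 at 0.02 (SE 0.22) and Cldn2 at -0.15 (SE 0.20). The water channel gene Aqp1 was at 0.24 (SE 0.22). Igf2, a growth factor gene of the choroid plexus and its stroma, measured 583, 730, 425, 755, 605 and 611 CPM from young 1 to old 2 with no separation of the ages. In middle against young the same 5 lists had 6 of 22, 6 of 17, 4 of 17, 1 of 11 and 1 of 6 genes above 0 and no call, while 52.6% of all genes were above 0. The section middle 1, with the smallest share of Ttr, had the lowest CPM of Kl, Clic6 and Kcne2.

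Klotho is known as an ageing-related protein of this tissue, but Kl was part of the score, so its level in these spots is a description. Kl measured 914, 1019, 529, 873, 916 and 871 CPM from young 1 to old 2. Folr1 measured 503, 267, 340, 469, 421 and 388 CPM, Clic6 774, 677, 427, 716, 642 and 713 CPM, and Kcne2 406, 293, 221, 352, 377 and 325 CPM. The 30 spots were also chosen by 5 other epithelial genes (Otx2, Cldn2, Kcnj13, Sostdc1 and Slc4a5), which leaves Kl out of the score. This choice again took spots rich in epithelial transcripts and kept 23 to 29 of the 30 spots of a section. It was therefore not independent of the first choice, and it cannot decide whether Kl changed with age. There the change in old against young was -0.08 for Kl (SE 0.25), 0.08 for Folr1 (SE 0.30), -0.07 for Clic6 (SE 0.25) and 0.05 for Kcne2 (SE 0.25), all with an edgeR adjusted p of 0.999. For middle against young Kl was at -0.47 (SE 0.25, edgeR adjusted p = 0.998). With these standard errors a small change in either direction was not detectable. Of 9 other tested genes of the klotho and FGF pathway, 3 were above 0 in old against young and none was called. The pathway list genes Fgf23, Cyp24a1, Cyp27b1, Trpv5, Trpv6, Slc34a1 and Casr had no UMI in the choroid plexus spots of any section.

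No gene of the interferon, MHC, complement or macrophage lists was called between ages. Of 17 tested interferon response genes (31 in the tables), 12 were above 0 in old against young (median 0.21) and 13 in middle against young (median 0.43). The most abundant, Ifi27, measured 425 and 377 CPM in young 1 and young 2, 645 and 633 in middle 1 and middle 2, and 859 and 577 in old 1 and old 2. Both young values were the lowest, and the log2 fold change in old against young was 0.84 (SE 0.22, edgeR adjusted p = 0.510). Lgals3bp had the same order, with 145 and 153 CPM in young and 198 to 293 CPM in the 4 older sections (0.72, SE 0.22, edgeR adjusted p = 0.754). In this comparison 36.3% of all genes tested had groups that did not overlap. Cd74, the invariant chain of MHC class II, varied more within young (47.4 and 177 CPM) than between ages (93.8 and 125 CPM in old). The complement gene C4b was at 132 and 64.2 CPM in young and 56.5 and 265 CPM in old sections, so its replicates differed by more than the ages. Of 14 tested macrophage and microglia genes, 8 were above 0 in old against young (median 0.23) and 13 in middle against young (median 0.56). Their sum was highest in middle 1, at 994 unscaled CPM against 468 to 623 in the other sections. Of 9 senescence and ageing genes, 4 were above 0 in old against young (median -0.06). Lgals3, a gene of activated phagocytes, was at 51.2 and 44.4 CPM in the choroid plexus spots of young 1 and young 2, at 56.3 and 65.2 CPM in those of middle 1 and middle 2, and at 32.0 and 49.98 CPM in those of old 1 and old 2. In the other spots Lgals3 was at 1.1 unscaled CPM in both young sections and 3.6 and 5.1 in the old ones, and the age changes differed by -2.16 (edgeR adjusted p = 6.34e-04).

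Genes of oligodendrocytes, ependyma and mitochondria had no call either. Of 9 oligodendrocyte genes, none was above 0 in old against young (median -0.50) and all 9 were above 0 in middle against young (median 0.29), with no call. Mbp, a myelin gene, measured 3211, 3452, 6356, 2801, 1563 and 2669 CPM from young 1 to old 2, highest in middle 1 and lowest in old 1. Of 18 ependymal genes 5 were above 0 in old against young (median -0.22), and Rarres2, the chemerin gene, was at 297 and 330 CPM in young and 176 and 192 CPM in old sections without passing (-0.77, SE 0.22, edgeR adjusted p = 0.690). All 13 mitochondrially encoded genes were below 0 in old against young (median -0.30) and none was called. Their share of UMIs was 11.5%, 8.30%, 10.6%, 6.75%, 8.71% and 7.42% from young 1 to old 2, and the exact permutation test over the ages, which cannot go below 0.0667, gave p = 0.733. Middle 2 and old 2, the sections of slide 2, had the lowest mitochondrial shares, and no young section lay on that slide. Hspa1a and Hspa1b were the 2 genes still called in old against young with slide as a block.

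Tested against the other spots of the same sections, the change from young to old differed for 12 of 17192 genes (0.0698%), 6 more positive and 6 more negative in choroid plexus spots (0.0349% each). The fit used 1 spread per gene for the choroid plexus sums and the much larger sums of the other spots. For the 6 more positive genes the SE of the difference was below that of the change in choroid plexus spots alone. For the 6 more negative genes it was above. The adjusted p-values of this test can therefore understate the spread of the choroid plexus sums. The change from young to middle differed for 2 genes (0.0116%), Hspa1a and Dnajb1, both more negative (Dnajb1 -1.13, edgeR adjusted p = 0.00810). Besides the genes given above, the dendritic gene Ddn (1.34, edgeR adjusted p = 0.0151) and the calcium-binding protein gene Cabp1 (1.46, edgeR adjusted p = 0.0382), both neuronal, were more positive. Ddn measured 42.1, 49.1, 96.3, 96.1, 166 and 82.6 CPM and Cabp1 12.04, 14.2, 15.3, 15.5, 38.4 and 27.2 CPM from young 1 to old 2. Without old 1 the differences were 0.87 for Ddn and 1.15 for Cabp1, and neither passed (adjusted p = 1.00 for each). Without young 2 Ddn was at 0.95 (adjusted p = 0.175), and without young 1 Cabp1 was at 1.28 (0.499). The count of 12 genes rested on the sections used, with 24 without young 1, 59 without young 2, 71 without middle 1, 71 without middle 2, 11 without old 1 and 47 without old 2. For middle against young it was 20 and 9 without young 1 and young 2, and 16 and 49 without middle 1 and middle 2.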

How the data were processed

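Values deposited per section were unnormalized UMI counts by gene and spot. Per the file headers, Space Ranger 1.3.1 wrote them, whereas the submitters' processing notes list Space Ranger 3.1 and mm10. Accompanying deposited lists of spot barcodes and genes carry no measurement. Images of the tissue and the positions of spots were not used here. From 16743 spots, 2 with under 500 UMIs were left out.

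UMIs were summed over the 30 choroid plexus spots of each section and tested with edgeR 4.0.16 (TMM factors, filterByExpr, robust quasi-likelihood fit) in 1 model of age over all 6 sections, two-sided, with Benjamini-Hochberg adjustment over all genes tested. The difference from the other spots was an interaction term on 12 sums with section as a block and 1 spread per gene for both kinds of sums. Positions are those of GENCODE M21 (GRCm38), and sequences those of RefSeq. Single shares were compared by exact permutation. DESeq2 1.42.0, other filters, spot numbers, marker genes and blocks, and each section left out, served as alternatives. A restriction to spots with at least 5% Ttr was chosen after seeing the data. The members and the 28 gene lists were chosen with earlier results of these data known. Named genes were those of the score and Ttr, up to 10 called genes per contrast and direction with at least 10 CPM and no overlap of the groups compared, up to 4 most abundant genes of a list and those called in it, the 20 most enriched genes with at least 50 CPM, and up to 5 genes per interaction and direction; a selection of these is described. Ccn3 and the 7 klotho pathway genes without UMIs were named after their values were seen.

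The pipeline was tested on simulated counts for old against young (10245 genes, 200 changed). It recovered 23.9% of genes changed by 1 and 86.6% of genes changed by 2 on the log2 scale, and made 1.6 calls on average with no gene changed. Unchanged genes made up 15.5% and 7.38% of the calls at these 2 sizes, above the nominal 5%. Calls of smaller changes are therefore incomplete at this depth of 944460 to 1390500 UMIs per section. Sections of 1 age differed by more than counting noise (chi-square per degree of freedom 3.25, 7.76 and 2.17 in young, middle and old). Software was R 4.3.3, Python 3.11.15, pandas 2.3.3 and scipy 1.17.1.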

Additional observations from a re-analysis of the deposited data

Results flagged for a closer look

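The age change differed between choroid plexus spots and the other spots of the same sections for the genes below, by a test of that difference itself (edgeR interaction term with section as a block). Its adjusted p-values carry the limit on the shared spread given above. In old against young, Adcy1 (2.01), Ptgds (1.5), Camk2a (1.43), Ddn (1.34), Cabp1 (1.46) and Ccn3 (2.59) were more positive in choroid plexus spots on the log2 scale. Acta2 (-2.10), Hspa1b (-1.87), Lgals3 (-2.16), Thbs4 (-2.53), Cebpb (-1.60) and Errfi1 (-1.51) were more negative. In middle against young, Hspa1a (-1.81) and Dnajb1 (-1.13) were more negative. Ccn3, a secreted matrix-associated protein gene, had 2.26, 3.78, 3.81, 4.42, 16.0 and 16.3 CPM from young 1 to old 2, from 3, 4, 4, 4, 15 and 15 UMIs (edgeR adjusted p = 0.00686), and Errfi1 had an edgeR adjusted p of 0.0485. In the other spots Ccn3 was higher in every section, at 55.5 to 77.3 CPM scaled in the fit of the difference. The alternatives that follow were not tallied for the differences of Ccn3 and Errfi1.

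With 15 spots per section in place of 30, the difference was 1.13 for Adcy1, 0.97 for Ptgds, 0.69 for Camk2a, 0.94 for Cabp1, -1.42 for Acta2, -1.56 for Lgals3 and -1.62 for Thbs4, and none of these passed. With 60 spots it was 0.50 for Ptgds, 0.84 for Ddn, -1.23 for Thbs4 and -0.89 for Cebpb, and none of these passed either. Over all alternatives the call in old against young was lost in 7 of 17 for Thbs4, 6 of 18 for Cebpb, 3 of 18 for Ptgds, 9 of 18 for Cabp1 and 8 of 18 for Ddn. It was lost in 5 of 18 for Camk2a, 2 of 18 each for Adcy1 and Hspa1b, and 1 of 18 each for Lgals3 and Acta2. The call in middle against young was lost in 6 of 18 for Dnajb1 and 4 of 18 for Hspa1a. None of these changed sign.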

How the results depend on the processing

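Hspa1a and Hspa1b were called in each of 22 alternatives in old against young (highest adjusted p = 0.00644 and 0.00151) and in middle against young (0.00309 and 0.00655). Over all named genes, 646 of 805 values kept direction and side of the threshold, 132 lost the call, 27 gained one and 0 changed direction. The cause of each change in the counts below was not tested.

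The 10 genes called in old against young became 6 with DESeq2, 44 with no filter on low counts, 5 with at least 10 counts in every section, 2 with 60 spots, 2 with slide as a block and 21 in spots with at least 5% Ttr. The 4 of middle against young became 14 with no filter, 47 with 15 spots, 2 with slide as a block, 8 with the share of neuronal and glial genes as a covariate and 8 with at least 5% Ttr. The 0 of old against middle became 1 with DESeq2, 49 with no filter, 19 with 15 spots, 1 with the covariate and 1 with only the 2 groups fitted. The 12 of the old against young difference from other spots became 5 with DESeq2, 34 with no filter, 6 with at least 10 counts, 4 with the newer quasi-dispersion, 6 with 60 spots and 72 with at least 5% Ttr. The 2 of the middle against young difference became 0 with DESeq2, 8 with no filter, 0 with at least 10 counts, 0 with the newer quasi-dispersion, 69 with 15 spots, 5 with the 5 other marker genes and 13 with at least 5% Ttr. Leaving out 1 section gave 2 to 16, 3 to 6, 0 to 49 (49 without middle 2), 11 to 71 and 2 to 49 calls in these comparisons.

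Replicate numbers did not pair the sections (correlations of deviations 0.03, -0.07 and -0.13); with the replicate number as a block, 2, 2 and 0 genes were called in the 3 age comparisons. Depth, 2 sections per age, young sections on slide 1 only and unequal choroid plexus content of the spots limit these tests, so that a gene without a call is not shown to be unchanged.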
